A study of Mus musculus with 20 samples.

Results

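The collagen genes and the genes of laminin chains were followed across the vascular and neural cells of the mouse dentate gyrus (DG), across 3 ages and through knockdown of the histone methyltransferase Setd8 in culture. The members are the symbols made of Col, a number, a and a number, and of Lama, Lamb or Lamc with a digit, which gave 44 collagen and 11 laminin genes, 55 of the 27933 genes listed in the single-cell tables. All 55 are also among the 24062 genes of the culture table. The rule uses symbols alone. Values are given for members that passed a level in some class or in culture, and Col1a1, Col2a1, Col4a4, Col6a2, Col7a1, Col8a1, Col9a1, Col28a1 and Lama1 were named after their values were seen.

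Collagens are triple helices of 3 alpha chains, and laminins are cross-shaped trimers of an alpha, a beta and a gamma chain. Fibrillar collagens form the fibres of connective tissue, whereas network-forming collagen IV and the laminins are the 2 polymers of every basement membrane, the thin sheet of matrix on which cells rest. In the brain such sheets surround the vessels, where endothelial cells, pericytes, smooth muscle cells and the end feet of astrocytes all lay down matrix, and the hippocampal stem cell niche lies along these vessels.

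EGFP+ cells were sorted from the DG of Nestin-EGFP mice, C57BL/6 animals in which the Nestin promoter drives EGFP, at postnatal day 5 (P5), 12 weeks (12W) and 24 weeks (24W), and measured by single-cell RNA-seq (scRNA-seq) and single-cell ATAC-seq (scATAC-seq), with 1 library per age and assay. No Setd8 allele or treatment was involved in these animals, and the number pooled into a library was not given in the sources used here. The same reporter marks neural stem cells (NSCs) and vessel-associated cells, so the sort holds both. For the knockdown, cultured mouse NSCs were infected with lentivirus carrying a short hairpin RNA against Setd8 or a scrambled one, selected with puromycin and taken 3 days later for bulk RNA-seq. The labels call them hippocampal neural stem/progenitor cells, while the study's methods describe NSCs from embryonic cortex kept through many passages, which limits them as a model of adult NSCs.

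After filtering, the P5, 12W and 24W scRNA-seq libraries comprised 12752, 5271 and 2794 cells, with medians of 4261, 2271 and 2178 unique molecular identifiers (UMIs, each standing for 1 captured RNA molecule) per cell. Values listed in threes below follow this order of ages. Xist, expressed from the inactive X chromosome, was at 488, 1733 and 0.28 UMIs per 1000000 UMIs (CPM), and the Y-linked Ddx3y at 34.7, 0 and 73.8 CPM, so the P5 library holds RNA of both sexes, and between 12W and 24W age and sex cannot be told apart. The libraries of each pair of ages shared between 26 and 86 barcodes, and 1 barcode was in all of them. Vascular-like cells made up 4.89%, 57.0% and 76.0% of cells. Every class is named "-like" because it rests on marker genes, none of which is a collagen or a laminin, and the members were kept out of the clustering. The vascular side comprises pericyte-like, mural-like (between pericyte and vascular smooth muscle cell, VSMC), VSMC-, endothelial- and fibroblast-like cells and a cycling pericyte-like cluster found at P5, in all 623, 3002 and 2123 cells. The neural side comprises astrocyte-like (AS), NSC-like, neural progenitor-like (NPC) and immature neuron-like (IMN1 and IMN2) cells, in all 7863, 1700 and 371 cells. Endothelial-like cells numbered 12, 89 and 108 and fibroblast-like cells 14, 11 and 9 at the 3 ages, so their levels are imprecise, and the estimate of free RNA below could not be used for fibroblast-like cells. Free RNA from broken cells made up an estimated 11.5% (12W) and 12.9% (24W) of the UMIs of pericyte-like cells, 10.3% and 14.3% of those of NSC-like cells, and could not be read at P5, where the deposited table holds selected barcodes alone.

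The promoters of 6 members are shown because the results turn on them: the collagen IV pair that was highest at P5, 2 fibrillar genes of the vascular side with different accessibility at P5, a laminin gene counted as higher in adult mural- and VSMC-like cells, and a collagen VIII gene counted as higher in adult pericyte-like cells. Each sequence runs 5′ to 3′ on the strand of its gene, from 250 bases before the start to 50 after it, and was taken from RefSeq on GRCm38.p6, the build of the deposited peaks. Capitals mark matches on either strand to the CCAAT box (CCAAT), the GC box (GGGCGG) and the TATA box (TATAAA). The CCAAT and GC box letters can share bases, which they do not in these windows. Col4a1 (chr8:11312777-11313076, minus strand) and Col4a2 (chr8:11312555-11312854, plus strand) are divergent neighbours with starts 21 bases apart, so their windows overlap.
Col4a1: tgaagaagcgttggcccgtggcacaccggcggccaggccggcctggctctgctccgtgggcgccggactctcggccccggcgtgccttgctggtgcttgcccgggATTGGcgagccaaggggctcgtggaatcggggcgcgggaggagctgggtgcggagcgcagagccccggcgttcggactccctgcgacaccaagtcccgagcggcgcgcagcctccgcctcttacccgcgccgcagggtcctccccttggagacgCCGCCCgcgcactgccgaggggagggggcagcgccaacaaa
Col4a2: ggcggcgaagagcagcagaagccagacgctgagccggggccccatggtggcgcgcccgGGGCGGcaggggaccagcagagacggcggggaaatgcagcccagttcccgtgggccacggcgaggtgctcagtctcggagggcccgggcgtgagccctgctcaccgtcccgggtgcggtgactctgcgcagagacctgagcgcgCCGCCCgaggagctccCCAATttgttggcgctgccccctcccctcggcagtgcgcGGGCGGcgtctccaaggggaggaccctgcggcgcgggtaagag
Col1a2 (chr6:4505368-4505667, plus strand) and Col3a1 (chr1:45311288-45311587, plus strand) encode chains of fibrillar collagens I and III.
Col1a2: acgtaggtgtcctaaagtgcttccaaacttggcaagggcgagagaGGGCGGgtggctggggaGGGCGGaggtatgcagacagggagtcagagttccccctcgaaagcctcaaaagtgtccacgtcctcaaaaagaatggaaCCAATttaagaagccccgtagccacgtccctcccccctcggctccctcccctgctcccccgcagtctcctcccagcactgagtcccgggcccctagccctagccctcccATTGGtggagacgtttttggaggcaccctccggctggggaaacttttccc
Col3a1: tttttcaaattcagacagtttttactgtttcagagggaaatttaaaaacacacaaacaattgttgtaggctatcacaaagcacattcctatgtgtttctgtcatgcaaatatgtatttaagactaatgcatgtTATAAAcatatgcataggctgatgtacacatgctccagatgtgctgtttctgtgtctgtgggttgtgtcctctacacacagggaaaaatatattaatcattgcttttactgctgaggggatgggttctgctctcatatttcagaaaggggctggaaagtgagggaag
Lamb2 (chr9:108479612-108479911, plus strand) encodes the laminin beta 2 chain and Col8a1 (chr16:57754688-57754987, minus strand) a chain of the network-forming collagen VIII of vessel walls.
Lamb2: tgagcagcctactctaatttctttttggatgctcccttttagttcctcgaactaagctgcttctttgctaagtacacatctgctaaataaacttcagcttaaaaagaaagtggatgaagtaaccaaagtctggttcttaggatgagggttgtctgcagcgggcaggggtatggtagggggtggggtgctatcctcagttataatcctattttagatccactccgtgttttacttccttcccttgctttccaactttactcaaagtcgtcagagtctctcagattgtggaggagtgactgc
Col8a1: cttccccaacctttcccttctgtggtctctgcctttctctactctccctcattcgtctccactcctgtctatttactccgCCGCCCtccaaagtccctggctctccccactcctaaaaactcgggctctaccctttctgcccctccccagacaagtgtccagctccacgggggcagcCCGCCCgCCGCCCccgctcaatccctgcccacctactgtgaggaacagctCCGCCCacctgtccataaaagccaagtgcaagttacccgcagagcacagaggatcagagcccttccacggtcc
The Col4a1 window was 74% G or C and holds 1 CCAAT and 1 GGGCGG match, whereas the Col3a1 window was 37.7% G or C and holds 1 TATAAA at position -117 from the start. GGGCGG was in 26 of the 44 promoters listed for 40 members (59.1%) and in 35.7% of all 32851 promoters of that length. CCAAT was in 14 of the 44, against 37.4% of all promoters, and TATAAA in 5, against 13.6%. These are matches of letters and do not show that a factor binds.

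Most members that could be tested were higher on the vascular side. Of the 55 genes, 33 passed the filter on low counts in the 6 sums of UMIs (2 sides in each of 3 libraries), and with the library as a block 20 were higher and 4 lower in vascular-like than in neural cells at an adjusted p under 0.05 (edgeR quasi-likelihood test, Benjamini-Hochberg adjustment over all 12755 genes tested). Over all genes 18.7% were called higher and 18.8% lower. The median log2 fold change of the 33 genes was 2.83, against -0.04 over all genes, although genes that are low on both sides could not pass the filter. In 21 of the 24 called genes the 3 libraries of a side did not overlap those of the other side, and in each of the 24 the direction was the same within each library. These genes were picked by a call on the same sums, and the share over all called genes was not counted. The counts thus describe the called genes and add no support. By family, 14 of 26 tested collagens and 6 of 7 tested laminins were higher. The libraries stand in for replicates here and differ in age and sex, so a p-value measures the spread between them. The log2 fold changes are on counts scaled by TMM (trimmed mean of M values), which sets the vascular side 0.16 higher than the CPM levels do, and without it every one of the 24 calls stayed.

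**Figure D1:**
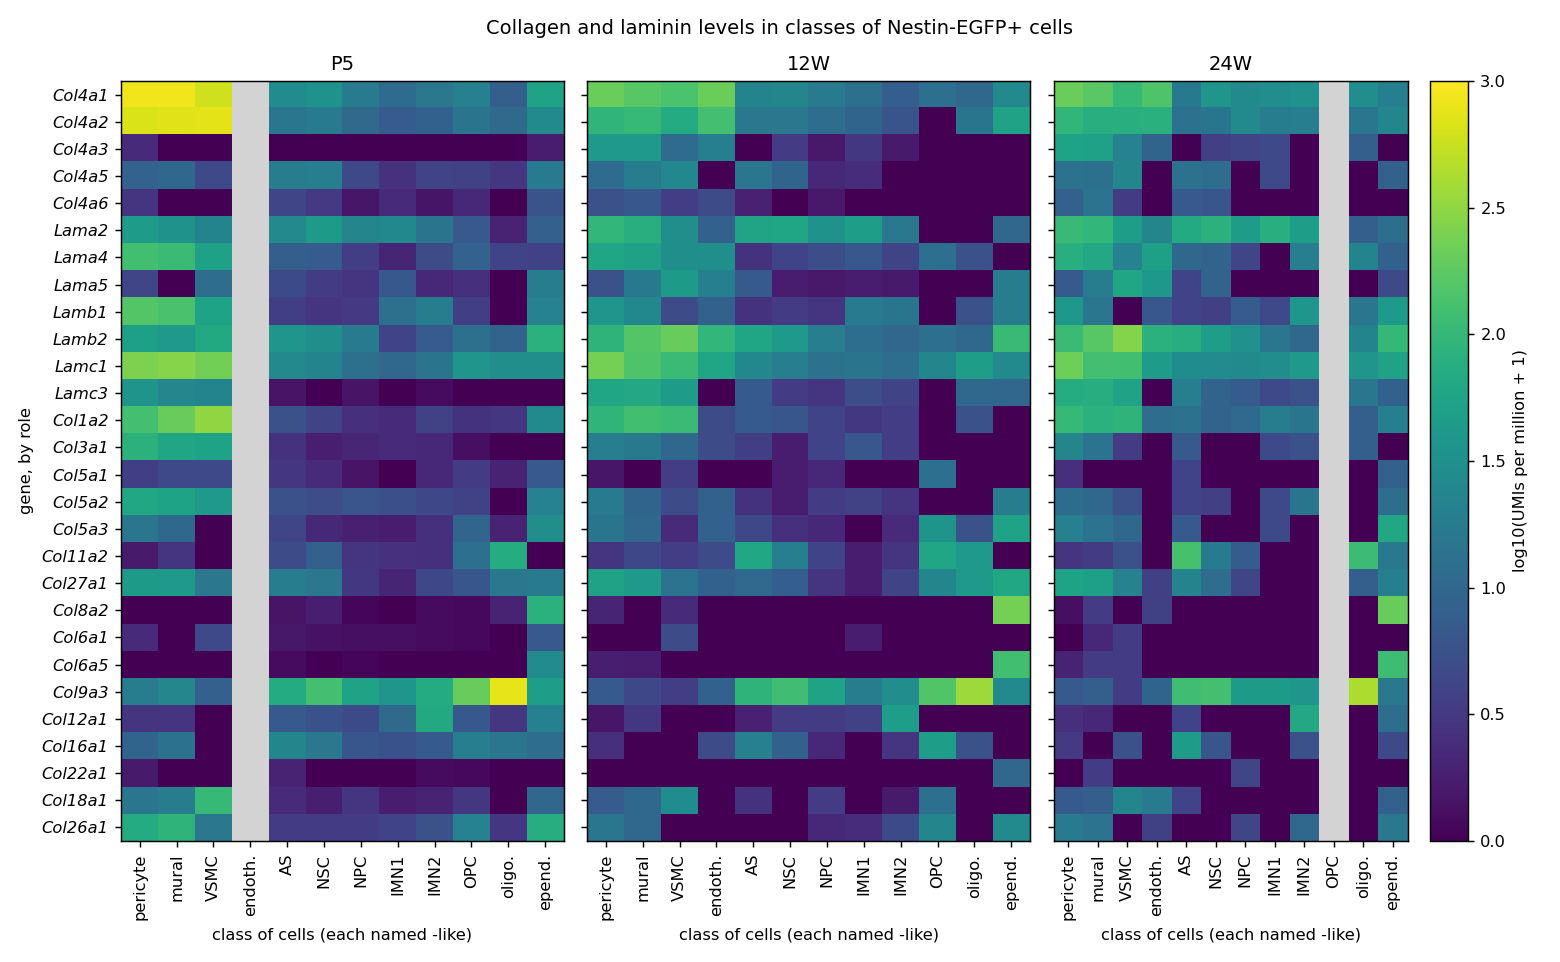
Colour map of the levels of 28 collagen and laminin genes (vertical axis, ordered by role) in classes of cells (horizontal axis) at P5, 12W and 24W, as log10 of CPM plus 1; grey marks classes with fewer than 20 cells. The collagen IV genes Col4a1 and Col4a2 are brightest in the pericyte-, mural- and VSMC-like columns at P5, and Col9a3 in the oligodendrocyte-like column at each age.

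Col4a1 and Col4a2, whose products form the common collagen IV trimer of basement membranes, were high on the vascular side at each age. Col4a1 was at 846, 194 and 192 CPM in vascular-like cells and at 22.9, 15.5 and 27.2 CPM in neural cells (log2 fold change 4.09, SE 0.52, edgeR adjusted p = 0.0077). Col4a2 had 707, 93.2 and 87.4 CPM against 12.1, 10.3 and 17.2 CPM (4.02, SE 0.80, edgeR adjusted p = 0.020). The lowest vascular-like library of each gene was thus several-fold above the highest neural one. Within the neural side Col4a1 was at 33.1, 22.9 and 35.3 CPM in NSC-like cells, and the predicted free RNA amounted to 40.04% and 39.3% of the adult values.

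The other collagen IV chains were less evenly spread. Col4a3, a chain of the collagen IV of kidney and lung, was at 0.54, 35.7 and 46.8 CPM in vascular-like and 0, 1.12 and 1.99 CPM in neural cells (log2 fold change 5.07, SE 0.40, edgeR adjusted p = 0.0040). The P5 level of its vascular side lies among the neural levels, so the ranges overlap and the call rests on the adult libraries. With 0, 8 and 3 neural UMIs, Col4a3 passed the count filter mainly through the vascular side, so its fold is imprecise and its call is a description. The head-to-head neighbour of Col4a3, Col4a4, was at 1.08, 17.7 and 20.5 against 2.33, 2.23 and 2.65 CPM and was not called (edgeR adjusted p = 0.17). Col4a5 and Col4a6, which pair in the collagen IV of smooth muscle and other tissues, had log2 fold changes of 0.96 (SE 0.47, edgeR adjusted p = 0.17) and 1.99 (SE 0.75, edgeR adjusted p = 0.099). Col4a5 was at 17.4, 14.0 and 12.2 CPM in AS-like cells, the last from 4 UMIs.

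Laminin chains of the vessel wall followed. Lamc1, the gamma 1 chain present in most laminins, was at 237, 191 and 180.3 CPM in vascular-like and 19.1, 15.3 and 29.1 CPM in neural cells (log2 fold change 3.48, SE 0.27, edgeR adjusted p = 0.0038). Lama4, the alpha chain of endothelial and mural basement membranes, was at 108, 52.5 and 67.1 against 5.13, 3.63 and 7.29 CPM (4.07, SE 0.27, edgeR adjusted p = 0.0034). For both genes every vascular-like library lay above every neural one. Lamb1 was at 136, 29.2 and 28.4 against 4.68, 7.53 and 8.61 CPM (3.17, SE 0.75, edgeR adjusted p = 0.032). Lamb2, the beta chain of muscle and mature vessels, was at 48.2, 118 and 132 against 24.9, 25.3 and 37.8 CPM (1.81, SE 0.31, edgeR adjusted p = 0.014). Lamc3 had 33.6, 55.8 and 64.4 against 0.33, 3.35 and 8.61 CPM (4.73, SE 0.76, edgeR adjusted p = 0.012). With 13, 24 and 13 neural UMIs, Lamc3 passed the count filter through the vascular side, so its fold is imprecise and its call is a description. Lamb1 and Lamb2, which can take the same place in a laminin trimer, thus had their higher vascular levels at opposite ages.

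Lama2, the alpha chain whose loss causes a muscular dystrophy, differed least among the genes called higher. Its vascular levels were 33.6, 80.0 and 89.9 CPM and its neural levels 25.1, 40.2 and 64.9 CPM, so the ranges overlapped, although the vascular side was higher within each library (log2 fold change 0.79, SE 0.19, edgeR adjusted p = 0.033). The call was lost in 5 of 13 alternatives, among them the fit with no replicate block and pericyte-like against NSC-like cells alone, with log2 fold changes down to 0.45 and adjusted p up to 0.192 (edgeR or DESeq2). Lama2 was at 42.6, 57.9 and 84.1 CPM in NSC-like cells. Lama5 was not called (2.04, SE 0.64, edgeR adjusted p = 0.063) and was at 10.9, 42.0 and 59.4 CPM in VSMC-like cells. The 4 laminin genes that were not tested had few UMIs on either side, the most being 51 of Lama1 in vascular-like cells at P5.

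Of the 8 fibrillar genes tested, 5 were higher and 1 was lower on the vascular side. Col1a2, a chain of the main collagen of bone and skin, was at 181, 100.02 and 96.1 CPM in vascular-like and 3.23, 3.63 and 11.9 CPM in neural cells (log2 fold change 4.85, SE 0.60, edgeR adjusted p = 0.0074). Col3a1, whose product forms the pliable fibres of vessel walls, was at 113, 18.0 and 18.0 against 1.38, 2.93 and 2.65 CPM (4.55, SE 0.97, edgeR adjusted p = 0.024). With 55, 21 and 4 neural UMIs, Col3a1 passed the count filter through the vascular side, so its fold is imprecise and its call is a description. With an unnamed cluster of pericyte, VSMC and fibroblast markers added to the vascular side, its vascular levels were 118, 56.5 and 43.2 CPM. Both were far higher in the fibroblast-like cells, where Col1a2 was at 1500.1, 879.8 and 1192 CPM and Col3a1 at 1580.2, 456 and 238 CPM over 14, 11 and 9 cells. Col1a1, the partner chain of Col1a2 in collagen I, was at 687, 978 and 636 CPM in fibroblast-like cells but at 5.16, 0 and 0.32 CPM in pericyte-like cells, where Col1a2 had 126, 90.0 and 102 CPM. It was not called between the sides (2.44, SE 1.35, edgeR adjusted p = 0.22). Col5a2 (3.03), Col5a3 (2.83) and Col27a1 (2.64), chains of minor fibrillar collagens, were the other genes called higher. Col5a3, with 81, 10 and 3 neural UMIs, also passed the filter through the vascular side, and its call is a description.

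Among smaller groups, Col8a1 (log2 fold change 5.28, SE 0.76), Col6a2 (4.57, SE 0.65) and Col18a1 (4.20, SE 0.38), a basement membrane collagen whose end fragment is endostatin, were higher in vascular-like cells, as were Col26a1, Col7a1 and Col28a1 (edgeR adjusted p between 0.0045 and 0.019 for the 6 genes). Neural cells had 3, 1 and 0 UMIs of Col28a1, 2, 7 and 4 of Col8a1 and 51, 7 and 1 of Col18a1. They had 19, 1 and 2 UMIs of Col6a2, 26, 8 and 1 of Col7a1 and 107, 10 and 3 of Col26a1. These genes passed the count filter through the vascular side, so the size of their fold is imprecise and their calls are a description. Col18a1 was at 30.1, 10.3 and 9.53 CPM in vascular-like and 1.28, 0.98 and 0.66 CPM in neural cells, and its vascular levels were 34.7, 17.0 and 14.99 CPM with the same unnamed cluster added. None of the 5 tested FACIT collagens, which sit on the surface of fibres made by other collagens, was higher and 3 were lower.

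The members called lower on the vascular side were Col9a3, Col12a1, Col11a2 and Col9a1. Col9a3, a FACIT chain best known from cartilage, was at 70.9, 57.9 and 79.5 CPM in neural and 17.2, 5.13 and 6.01 CPM in vascular-like cells (log2 fold change -2.89, SE 0.37, edgeR adjusted p = 0.0078). It reached 764, 363 and 426 CPM in oligodendrocyte-like cells and 128, 119.7 and 130.2 CPM in NSC-like cells. In adult pericyte-like cells the predicted free RNA accounted for 106% and 101% of its level. Col12a1, another FACIT, was lower (-2.27, SE 0.33, edgeR adjusted p = 0.0096) and was concentrated in IMN2-like cells, at 65.9, 47.0 and 64.1 CPM, against 9.84, 2.77 and 0 CPM in IMN1-like cells. Col11a2 (-2.64, SE 0.56) and Col9a1 (-3.03, SE 0.70) completed the set (edgeR adjusted p = 0.024 and 0.030). Vascular-like cells had 8, 0 and 1 UMIs of Col9a1, 5, 15 and 10 of Col11a2 and 10, 10 and 11 of Col12a1. These genes passed the count filter through the neural side, so their folds are imprecise and their calls are a description. The ranges of Col9a1 overlapped between the sides, and its call stayed in 8 of 12 alternatives. Among classes of at least 20 cells, the highest level of Col11a2 was 268 CPM, from 11 UMIs, in erythroid-like cells at 24W, and that of Col9a1 was 40.8 CPM, from 9 UMIs, in oligodendrocyte-like cells at 12W. The erythroid-like cluster also held astrocyte markers, with Slc7a10 and Igfbp2 among its top genes. The part of astrocyte RNA in its Col11a2 level was not tested.

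**Figure D2:**
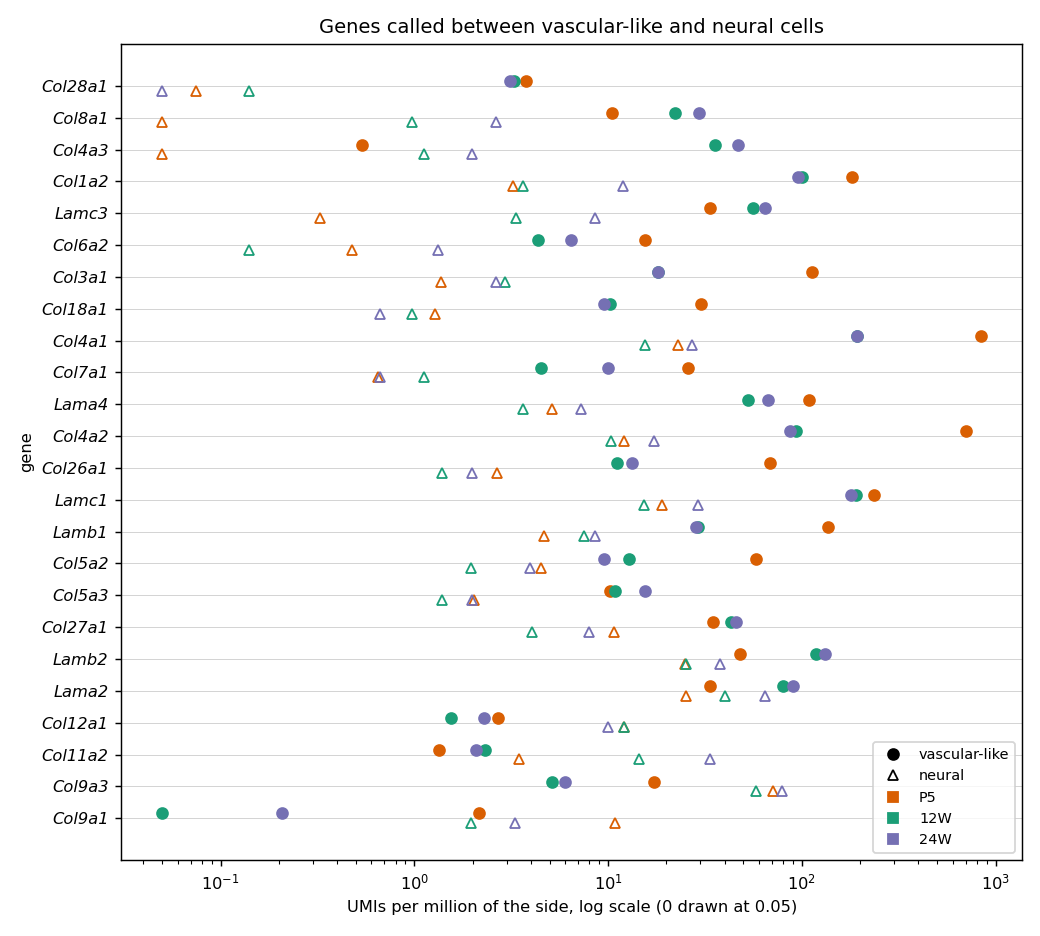
Levels of the 24 called genes in CPM (log axis, 0 drawn at 0.05) on the vascular side (filled circles) and the neural side (open triangles) in each library, coloured by age. Within each age the filled circle lies right of the triangle for the 20 genes called higher, and left of it for Col12a1, Col11a2, Col9a3 and Col9a1.

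These calls, like those over all genes, rest strongly on the 12W library. Without it edgeR called 7 members higher and 0 lower (19 and 4 at an unadjusted p under 0.05). Over all genes 919 were then called, against 4783 in the main fit. Without the 24W library 14 and 1 members were called (1860 of all genes), and without the P5 library 25 and 7 (8321 of all genes). With the predicted free RNA subtracted from the adult libraries, 12 members were called higher and 1 lower (1849 of all genes called). The directions did not change where calls were lost. Over the alternatives the log2 fold change of Col1a2 was between 4.34 and 6.15 (highest adjusted p 0.0587, edgeR or DESeq2), that of Lamb1 between 2.07 and 5.79 (0.081) and that of Col9a3 between -5.33 and -2.55 (0.126). Col18a1, Col26a1, Lama4 and Lamc1 were called in each of the 13 alternatives. Col18a1 and Col26a1 passed the count filter through the vascular side, so their calls are a description. The share of all called genes that stayed in each alternative was not counted, so nothing is read from this about these genes. The 22 members that were not tested had at most 407 UMIs over both sides, that highest total being of Col2a1, a cartilage collagen with 393 UMIs in neural cells at P5, and 2 had none.

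Genes that work with these chains were counted in the same comparison, in which 18.7% of all genes tested were higher and 18.8% lower. Of 13 other basement membrane proteins 11 were tested, with 8 higher and 1 lower on the vascular side. Nid1, which links laminin to collagen IV, was at 304, 130.5 and 129 CPM against 10.2, 5.02 and 11.9 CPM (log2 fold change 4.58, SE 0.34, edgeR adjusted p = 0.0038), whereas Smoc1 was lower. Of 28 genes of collagen synthesis and crosslinking 24 were tested, with 13 higher, among them Serpinh1, the chaperone of procollagen (3.02, SE 0.20, edgeR adjusted p = 0.0034), and 1 lower, Loxl1. Of 16 receptors 12 were tested, with 7 higher, among them Itga1, an integrin chain that binds collagen (4.92, SE 0.70, edgeR adjusted p = 0.0091), and 1 lower, the collagen receptor Ddr1 (-1.72, SE 0.14, edgeR adjusted p = 0.0041), which was at 82.4, 113 and 117 CPM in neural cells. The related receptor Ddr2 had the opposite direction (2.35, SE 0.29, edgeR adjusted p = 0.0071).

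Accessibility at the gene starts was compared in the scATAC-seq libraries, in which 444, 7649 and 4146 nuclei were vascular-like and 4522, 4173 and 809 neural at P5, 12W and 24W. The neural nuclei were named AS-, NSC- and IMN1-like at P5 and NSC- and IMN1-like alone in the adults. No cluster of nuclei was named NPC- or IMN2-like. The neural side thus differs in make-up between RNA and accessibility, and the part of this in the comparisons below was not tested. Within 1 kb of their starts 49 members had a region with a peak in each library, 48 regions in all, and 31 were more and 6 less accessible in vascular-like nuclei (edgeR quasi-likelihood test on summed counts, library as a block, adjusted over 95004 regions). Over all regions 28.9% were called higher and 38% lower, but over the 15023 regions near starts of protein-coding genes 64.2% were called higher and 12.9% lower. These log2 fold changes are again on TMM-scaled counts, which sets the vascular side 0.69 higher, on average over the libraries, than the totals of the tested regions do. With the totals in place of TMM, 27 of the 48 regions were more and 8 less accessible, against 27.3% and 17.6% of regions at starts and 16.5% and 42% of all regions. The share called higher among the collagen and laminin regions was thus near that of gene starts in general with TMM and above it without, so nothing is read from it about these genes. Their median log2 fold change was 1.60, against 0.78 at starts of protein-coding genes, and without TMM 0.91 against 0.09.

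Of the 20 genes with more RNA on the vascular side, 19 had a more accessible region, and Col28a1 had none. The same was so for 96% of all 2213 genes with more vascular RNA and a region at a start, and without TMM for 76.7% of 1893 such genes and again for the 19, so the count is a description. The region shared by Col4a1 and Col4a2 (chr8:11306618-11314850) had 75.3, 74.2 and 90.0 CPM, here counts per 1000000 counts in the nuclei of a side, in vascular-like and 39.8, 43.1 and 45.7 in neural nuclei at P5, 12W and 24W (TMM-scaled log2 fold change 1.66, SE 0.18, edgeR adjusted p = 0.0047). Without TMM, on the scale of these levels, the log2 fold change was 0.97 (edgeR adjusted p = 0.012). Its neural level was thus well above 0 although the neural RNA of both genes was low. The Col1a2 region (chr6:4503059-4507314) had 29.2, 44.1 and 45.7 against 4.11, 9.81 and 8.91 CPM (3.21, SE 0.16, edgeR adjusted p = 0.0019, and 2.53 without TMM). The largest difference at a laminin gene was at Lamc3 (chr2:31886529-31894925), with 66.9, 127 and 130.1 against 9.26, 23.0 and 18.2 CPM (3.48, SE 0.18, edgeR adjusted p = 0.0019, and 2.79 without TMM). Of the 4 genes with less RNA on the vascular side, Col9a1, Col9a3 and Col11a2 had a less accessible region (31.5% of all 2240 such genes did, and 39.3% without TMM). The region of Col12a1 was not called with TMM (0.05, SE 0.14, edgeR adjusted p = 0.78) and was called lower without it (-0.64, edgeR adjusted p = 0.019).

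RNA and accessibility did not have the same order of ages at each gene. The Col3a1 region (chr1:45310896-45314755) had 6.06, 34.3 and 34.4 CPM in vascular-like nuclei, lowest at the age when its RNA was highest. The Col8a1 region (chr16:57750450-57756320) had 17.9, 62.3 and 63.6 CPM and the region shared by Col4a3 and Col4a4 (chr1:82585900-82588842) 9.09, 30.7 and 34.3, lowest at P5 as was the RNA. The vascular side differed in make-up between these ages, with 363 pericyte-like and 81 fibroblast-like nuclei at P5, when no VSMC- or endothelial-like cluster was found, and with 687 and 417 VSMC-like nuclei in the adults. With 1 library per age these values have no test, and the part of this make-up in them was not tested.

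**Figure D3:**
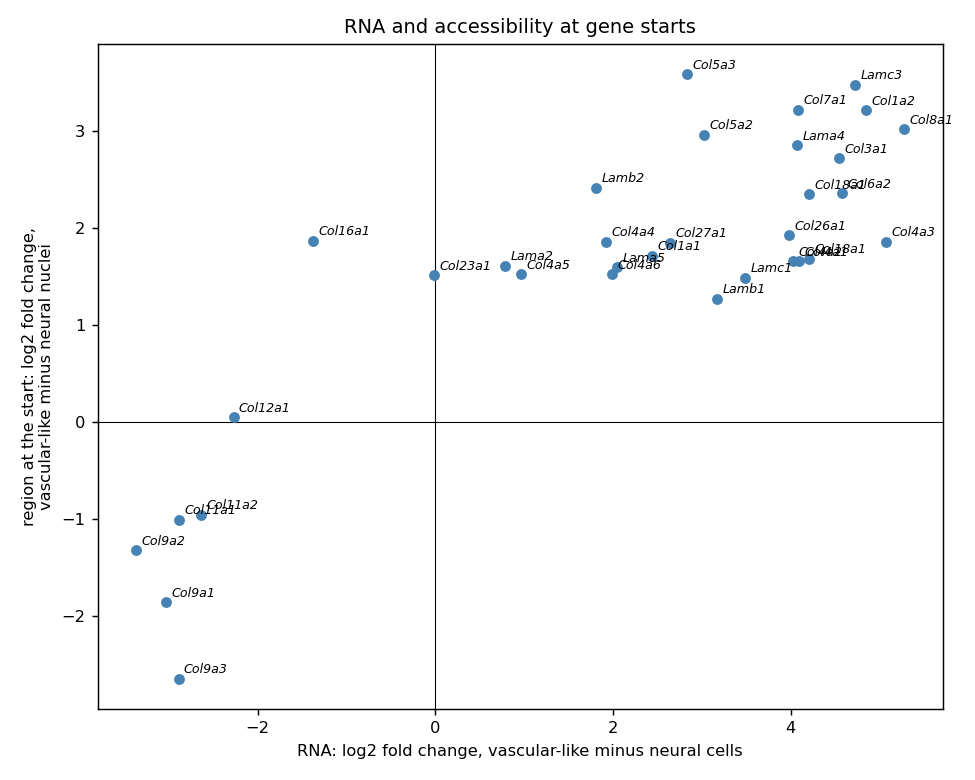
Log2 fold change of RNA (horizontal axis, vascular-like minus neural cells) against log2 fold change of accessibility of the region at the gene start (vertical axis, vascular-like minus neural nuclei), both TMM-scaled, for the 32 members tested in both, drawn as 33 points because Col18a1 has 2 regions. The points called higher in RNA lie above 0 on the vertical axis, Col9a1, Col9a3 and Col11a2 lie below 0 on both axes, and Col16a1 has a more accessible region with an RNA difference of -1.38 that was not called. The neural side differs in its classes between RNA and accessibility.

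Within pericyte-like cells the collagen and laminin genes divided by age. There is 1 library per age, so no test was made, and a gene was counted when both adult libraries differed from P5 by 2-fold or more, one way, and the higher level rested on 20 UMIs or more. Of the 21 members with enough UMIs, 9 were lower and 4 higher in the adult libraries. Over the 9619 genes compared 7.5% were lower and 14.5% higher. The median log2 ratio of all genes to P5 was 0.22 in the younger and 0.27 in the older adults, and with ratios divided by that median 9 were lower and 3 higher, Lama2 being lost. Of all 9619 genes, 973 were lower and 936 higher in that setting.

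Col4a1 went from 857 CPM at P5 to 212 CPM in each adult library, a ratio to P5 of 0.25 at both ages (95% counting intervals 0.23 to 0.27). Col4a2 went from 683 CPM to 92.0 and 92.3 CPM, with a ratio of 0.135 (0.12 to 0.15) at both ages. The 2 adult libraries of each gene thus lay together and far below P5. Col4a1 was at 869, 201 and 211 CPM in the largest cluster of the class, of 239, 1039 and 748 cells. It was at 946, 229 and 215 CPM in the next, whose P5 level rests on 25 cells (1042 and 787 in the adults), and at 783 CPM at P5 in a further cluster of 66, 3 and 1 cells. Col4a1 and Col4a2 were also lower in mural-like cells, where Col4a1 had 850.2, 164 and 169.6 CPM, and in VSMC-like cells, where it had 608, 140.04 and 100.5 CPM.

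The remaining genes lower in adult pericyte-like cells were Col3a1 (83.2, 18.4 and 21.9 CPM), Col5a2, Col7a1, Col18a1, Col26a1 (69.0, 14.1 and 15.6 CPM), Lamb1 and Col9a3. Lamb1 was at 157, 37.1 and 38.8 CPM, with ratios of 0.24 (0.19 to 0.29) and 0.25 (0.20 to 0.31). The level of Col9a3 in the adults was about that of its predicted free RNA, as given above. In the largest cluster of the class alone 7 members were lower and 3 higher of 19 compared (6.85% and 15.1% of all genes). Col18a1, at 10.3, 5.77 and 6.13 CPM from 12, 13 and 11 UMIs there, and Col9a3 had too few UMIs to be compared. An unnamed cluster of 11, 290 and 173 cells, in which pericyte markers scored highest, is not part of the class. Its Col18a1 was at 298, 93.8 and 100.3 CPM, and its adult Col3a1 was above that of pericyte-like cells, as given at the end. Pericyte-like cells had 22, 25 and 19 UMIs of Col18a1 and this cluster 19, 53 and 31. The counts of Col3a1 and Col18a1 as lower therefore hold for the class without this cluster. With it added, neither gene would be 2-fold lower at both adult ages.

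Col4a3 and Col4a4 went the opposite way from Col4a1 and Col4a2. Col4a3 had 2 UMIs at P5 (1.29 CPM) and then 39.9 and 54.1 CPM, and Col4a4 had a single UMI at P5 (0.64 CPM) and then 22.5 and 22.3 CPM. With so few UMIs at P5 the ratios are imprecise, 30.9 (8.42 to 258) and 41.9 (11.4 to 349) for Col4a3 and 34.9 (6.10 to 1394) and 34.5 (6.0 to 1384) for Col4a4. Col4a3 was also higher in adult mural-like cells, at 0, 41.4 and 51.5 CPM. Col8a1 (7.74, 25.8 and 31.2 CPM) and Lama2 (44.5, 95.9 and 103 CPM) were the other members higher in adult pericyte-like cells. In VSMC-like cells Col8a1 was at 43.7, 8.91 and 29.7 CPM, from 12, 7 and 13 UMIs. In the largest cluster alone Lama2 was at 44.7, 84.3 and 94.7 CPM and no longer met the rule at 12W.

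Lamc1, which pairs with either beta chain, was at 253, 233 and 219 CPM in the same cells, a ratio of 0.92 (0.82 to 1.04) at 12W and 0.87 (0.77 to 0.98) at 24W. Lamb2 was at 47.7, 88.5 and 110.1 CPM, just short of the rule at 12W with a ratio of 1.85 (1.44 to 2.42). In VSMC-like cells Lamb2 went from 65.5 to 202 and 274 CPM and in mural-like cells from 39.5 to 155 and 164 CPM, and both were counted as higher. In pericyte-like cells the ratios of Lamb1 and Lamb2 thus lay on opposite sides of 1, with that of Lamc1 between them. In mural-like cells Lamc1 was at 283, 150 and 128 CPM, with ratios of 0.53 (0.43 to 0.65) and 0.45 (0.35 to 0.58). In VSMC-like cells its ratios were 0.49 (0.35 to 0.68) and 0.55 (0.37 to 0.80), so in both classes it was short of the rule at 1 adult age, and met it in both with ratios divided by the median ratio of all genes. Lama4 was at 124, 59.1 and 76.3 CPM, and its ratio at 24W (0.62, 0.51 to 0.75) did not reach the rule.

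**Figure D4:**
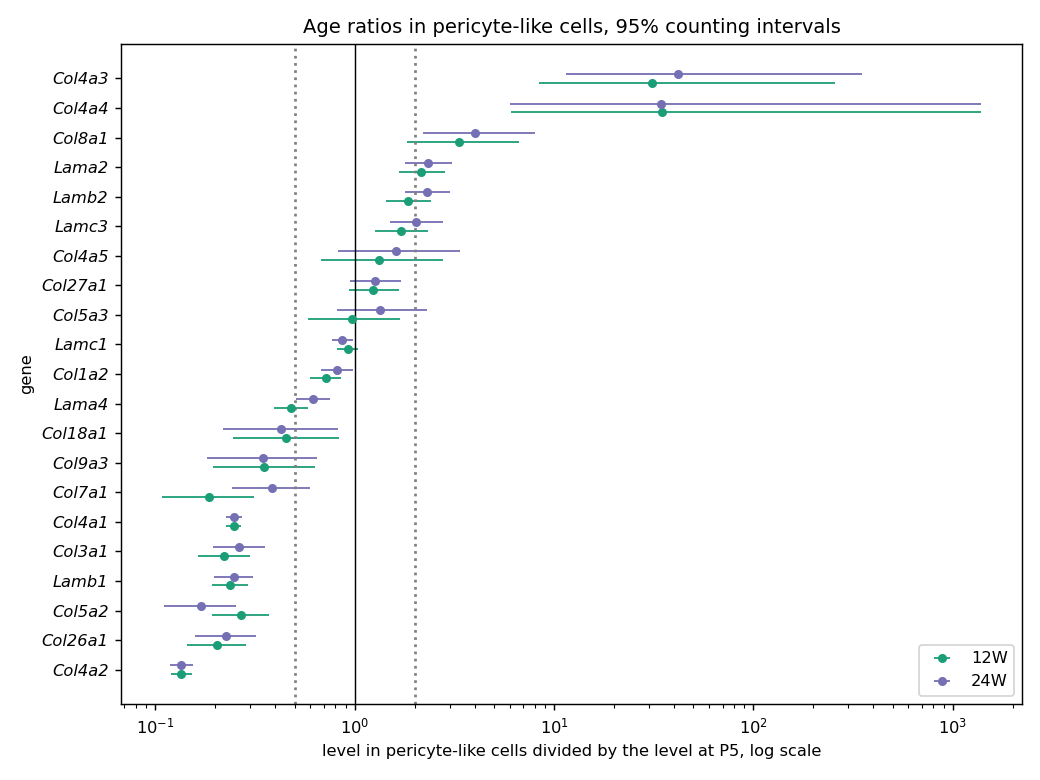
Level in pericyte-like cells at 12W (green) and 24W (violet) divided by the level at P5 (log axis) for the 21 members compared, with 95% counting intervals; dotted lines mark 2-fold and the solid line no difference. Col4a2 is at 0.135 at both ages at the bottom, and Col4a3 and Col4a4 stand at the top with wide intervals.

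Across the other vascular classes, 6 members were lower and 6 higher of 16 compared in adult mural-like cells (background 6.95% and 16.4%) and 4 lower and 2 higher of 9 compared in adult VSMC-like cells (7.56% and 18.6%). With ratios divided by the median ratio of all genes, 8 were lower and 4 higher in mural-like cells, where Lama2 and Col8a1 were no longer counted and Lamc1 and Lama4 were counted as lower, and 5 were lower and 2 higher in VSMC-like cells, where Lamc1 was added. Over all genes 621 of 6146 were then lower and 717 higher in mural-like cells, and 429 of 3810 lower and 519 higher in VSMC-like cells. Lama5 and Lamb2 were the higher genes in VSMC-like cells. Members of the partner lists were also counted in both directions in pericyte-like cells, with 3 higher and 4 lower of 9 basement membrane proteins compared (Nid1, Nid2, Agrn and Fn1 lower), 5 and 2 of 20 synthesis genes and 2 and 1 of 10 receptors (14.5% and 7.5% of all genes).

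Other markers moved with age in the pericyte-like class. The summed level of its own 10 markers was 18840, 38420 and 41040 CPM, that of 7 cell cycle markers 294, 168 and 166 CPM, that of 8 OPC markers 357, 26.3 and 15.9 CPM, and that of 8 fibroblast markers 278, 349 and 445 CPM, with Lum at 0 at P5 and 12W. The 6 ependymal markers summed to 267, 909.7 and 947 CPM, the 9 endothelial markers to 189.5, 306 and 429.8 CPM, with Pecam1 at 0 at P5, and the 9 astrocyte markers to 258.5, 47.3 and 52.2 CPM. Their part in the age differences was not tested. In mural-like cells the OPC markers were at 1013, 15.2 and 41.0 CPM and the ependymal markers at 289, 861 and 941 CPM. In VSMC-like cells the OPC markers were at 553, 14.0 and 22.8 CPM and the cell cycle markers at 637, 118 and 155 CPM. Other lists moved there too, among them the class's own markers (14520, 26880 and 27220 CPM), fibroblast markers (138, 479 and 459 CPM) and endothelial markers (25.5, 80.2 and 253.5 CPM). The part of these lists was not tested either. With the cycling pericyte-like cluster of P5 added, 13 members were lower and 4 higher of 25 compared, where 11% of all genes were lower and 14.5% higher.

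In neural cells small numbers of members met the age rule, and these counts are descriptions beside the shares of all genes. Over the 5 neural classes 7 gene and class pairs were lower, and 14 with predicted free RNA subtracted. Counts over all genes rose too with the subtraction, from 748 to 1231 lower in AS-like and from 553 to 1004 in NSC-like cells. They went from 529 to 831 in NPC-like, 218 to 433 in IMN1-like and 545 to 894 in IMN2-like cells. In NSC-like cells the summed pericyte markers were at 335, 1483 and 3190 CPM and the OPC markers at 550, 57.9 and 43.4 CPM. Their part was not tested. AS-like cells had 2 higher and 2 lower of 29 compared (background 3.23% and 5.94%), and NSC-like cells 1 lower and 0 higher of 18 (5.08% and 3.18%). In AS-like cells the summed OPC markers were at 1020, 356 and 193 CPM, the NSC markers at 238, 528 and 566 CPM and the oligodendrocyte markers at 54.3, 268 and 116 CPM, and their part in these differences was not tested. Col11a2, a cartilage fibrillar chain, was at 3.85 CPM in AS-like cells at P5 and at 62.0 and 131.7 CPM in the adults, a ratio of 16.1 (11.4 to 22.7) and 34.2 (22.9 to 50.8). It was at 7.35, 18.3 and 16.3 CPM in NSC-like cells. Col2a1, with P5 levels of 14.7 (AS-like) and 11.4 (NSC-like) CPM, had no (0) UMIs in either class in the adults, where a count of 0 allows up to 2.29 CPM in NSC-like cells at 12W and 8.14 CPM at 24W. Its highest level among classes of at least 20 cells was 21.5 CPM, from 48 UMIs, in erythroid-like cells at P5, a cluster that also held astrocyte markers. The part of free RNA in these P5 levels, and of astrocyte RNA in the erythroid-like one, was not tested. Lama2 in AS-like cells went from 24.6 to 55.0 and 67.4 CPM, and no longer met the rule with predicted free RNA subtracted or in cells of at least 2000 UMIs. The summed level of the 10 pericyte markers in AS-like cells was 229, 1596 and 2973 CPM, and its part in the level of Lama2 was not tested. NPC-like cells had 3 lower of 18 (Col4a5, Col9a1 and Col16a1, background 4.6%), IMN1-like cells 1 of 7 (Col12a1, 2.41%) and IMN2-like cells 0 of 12 (5.23%), and 0 were higher in these 3 classes (1.48%, 1.86% and 1.28%).

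In culture, knockdown of Setd8 was compared in 4 libraries of transcripts per 1000000 (TPM), a level per length in which genes of a library can be set side by side. Only 4 of the 6 deposited values files hold TPM, and 3 of them equal the control columns of the study's own supplementary table over 170 of 170 genes while 1 equals a knockdown column, although 2 of the 3 carry knockdown titles (control libraries 1, 2 and 3 below are those titled Ctrl_3, Setd8KD_1 and Setd8KD_2, and the knockdown library is Setd8KD_3). The other 2 files, titled Ctrl_1 and Ctrl_2, hold gene symbols and lengths. The comparison is therefore of 3 control libraries with 1 knockdown library, grouped by that match and not by the titles, and every direction given for the knockdown rests on this grouping. Setd8 itself was at 154, 143 and 143 TPM in the controls and 36.4 TPM in the knockdown. The spread comes from the controls alone, and the single knockdown library is assumed to vary like them.

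The cultured NSCs expressed 17 of the 55 members at a mean of at least 1 TPM, and 9 of them were higher and 0 lower in the knockdown (limma on log2(TPM + 1), Benjamini-Hochberg adjustment over 12703 genes). Over all genes 20% were called higher and 21.7% lower. With the groups of the titles instead, Setd8KD_1 to 3 against Ctrl_3, limma called neither the members nor any other gene. With edgeR on reads recovered from the TPM, more members and more genes over all were called than with limma. The knockdown library lay above all 3 controls for 14 of the 17, against 41.3% of all genes, below them for 2 and among them for 1. Control library 1 was the lowest of the controls for 13 of the 17. The median log2 fold change was 0.55, against 0.00 over all genes.

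Lamc1, Lamb1 and Lamb2 were the most abundant members in the controls. Lamc1 was at 92.9, 110.2 and 123 TPM in the controls and 174 TPM in the knockdown (log2 fold change 0.69, SE 0.14, limma adjusted p = 0.0088). Lamb2 was at 20.2, 25.3 and 25.1 TPM and 44.8 TPM (0.91, SE 0.13, limma adjusted p = 0.0027). In both the knockdown library exceeded the highest control. Lamb1 was at 26.9, 32.5 and 35.4 TPM and 35.5 TPM, at the top of its controls, and was not called (0.17, SE 0.14, limma adjusted p = 0.37). Lama5, at 12.2, 17.7 and 18.2 against 22.3 TPM, was not called (0.48, SE 0.21, limma adjusted p = 0.12). Lama4 was at 2.19, 2.95 and 2.82 against 4.39 TPM and was called (0.57, SE 0.18, limma adjusted p = 0.046), but not with any 1 of the controls left out.

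Among collagen IV genes Col4a5 was the most abundant in culture, at 15.8, 20.2 and 20.2 TPM in the controls and 33.0 TPM in the knockdown (0.79, SE 0.15, limma adjusted p = 0.0061). Its partner Col4a6, with 1.98, 2.62 and 2.51 against 4.65 TPM, was higher as well (0.75, SE 0.18, limma adjusted p = 0.016). Col4a2 had 1.45, 1.18 and 1.84 against 3.00 TPM (0.69, SE 0.21, limma adjusted p = 0.038), while Col4a1 had 2.35, 3.73 and 3.57 against 4.42 TPM and was not called (0.38, SE 0.23, limma adjusted p = 0.22).

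Col22a1, a FACIT of tissue junctions, had the largest fold change among the 17 genes (1.38, SE 0.22, limma adjusted p = 0.0034). It had 40, 67 and 60 reads in the controls and 229 reads, or 4.24 TPM, in the knockdown. Col5a1 (2.95, 3.79 and 3.84 against 6.37 TPM) and Col18a1 (9.23, 9.31 and 9.62 against 14.0 TPM) were higher by 0.71 (SE 0.17) and 0.53 (SE 0.10), with limma adjusted p of 0.017 and 0.0071. Col16a1 had the largest decrease among the members, 5.46, 6.24 and 6.46 against 4.25 TPM, and missed the threshold (-0.42, SE 0.14, limma adjusted p = 0.0501). Col5a3, Col6a1 and Col9a3 were not called. Of the 9 genes called, 7 (Col18a1, Col22a1, Col4a5, Col4a6, Col5a1, Lamb2 and Lamc1) were called with each control left out in turn. The share of all called genes that kept their call in this way was not counted, so this is a description. Each of these fits also uses the same single knockdown library, which leaving out a control cannot check. With no filter on low values every called member but Col18a1 lost its call. With the groups that the sample titles give, every called gene did, members or not.

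**Figure D5:**
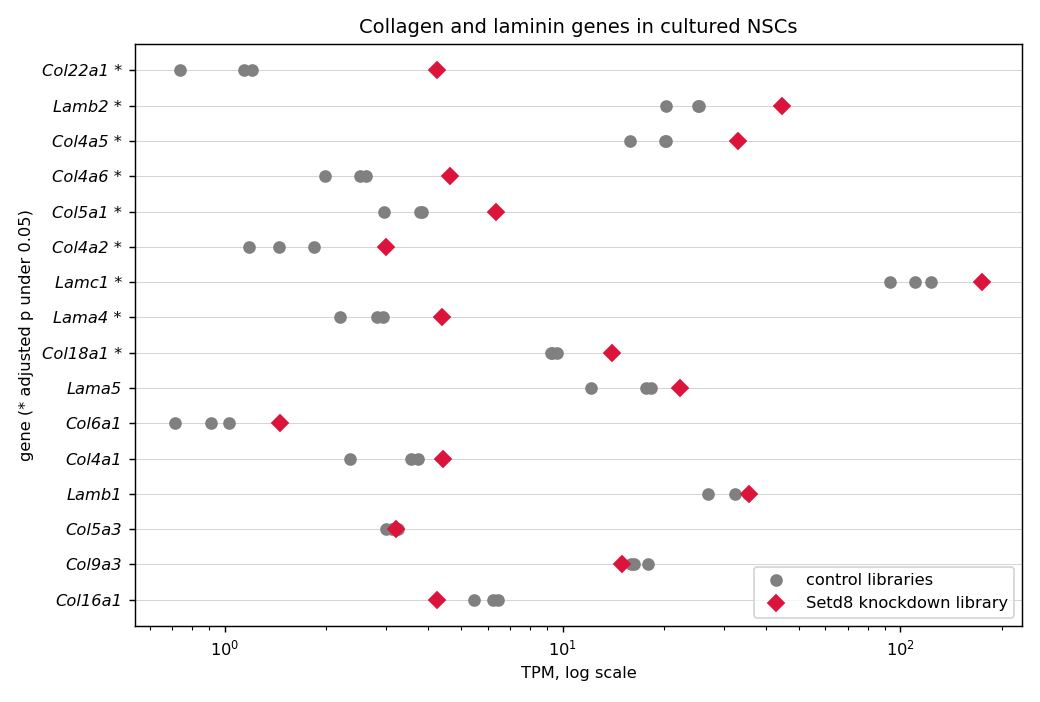
TPM (log axis) of 16 members with a mean of at least 1 TPM in the 3 control libraries (grey circles) and the Setd8 knockdown library (red diamonds), ordered by log2 fold change; an asterisk marks a limma adjusted p under 0.05. The diamond lies right of the controls for 13 of the genes drawn, and left of them for Col9a3 and Col16a1.

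The other 38 members were under 1 TPM, and 3 of these had no read in any library. Of the fibrillar genes higher on the vascular side, Col3a1 had 0 reads in each library and Col1a2 0 to 1 reads in the controls and 5 in the knockdown. Of the partner genes, 4 were higher (Fbln2, Nid2, Sparc and Tinagl1) and 1 lower (Fbln1) of 12 basement membrane proteins tested, 4 and 0 of 15 synthesis genes, and 6 and 0 of 11 receptors, where 20% of all genes tested were higher and 21.7% lower. Sparc, a collagen-binding matrix protein, went from 544, 531 and 568 TPM to 950.4 TPM (0.80, SE 0.06, limma adjusted p = 0.00022).

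Markers were checked in the same libraries. The summed level of 10 pericyte markers, of which 3 reached 1 TPM, was 22.1, 27.2 and 28.5 TPM in the controls and 38.1 TPM in the knockdown. Other lists also lay above the controls, such as interneuron markers (12.3, 13.4 and 12.6 against 23.4 TPM) and astrocyte markers (3952, 3973 and 4162 against 4466 TPM). Those of NSC, IMN1 and OPC markers lay below. The part of these lists in the differences of the members was not tested. The summed level of 7 cell cycle markers was 1162, 1167 and 1157 TPM and 504 TPM. Nes, Sox2, Pax6, Fabp7 and Vim together were at 11855, 12015 and 11993 TPM and 10298 TPM, so the neural stem cell genes are present in each library.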

How the data were processed

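Gene symbols, UMIs, peaks and TPM were taken as deposited. The authors counted raw UMIs per gene and barcode with Cell Ranger 2.2.0 on mm10, and deposited raw counts of transposase sites per peak from Cell Ranger ATAC. For bulk RNA-seq the authors trimmed reads with Trimmomatic, aligned them to mm10 with STAR and deposited TPM. The study's list of software names RSEM, and the step that used it is not given in the sources used here. Tool versions follow the study's methods and the submitters' processing notes.

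A barcode was kept from 1000 UMIs and 500 genes upward if no more than 10% of its UMIs were mitochondrial, and the 932, 80 and 3 doublets that scrublet in scanpy 1.11.5 called at P5, 12W and 24W were removed. Libraries were integrated and clustered with Seurat 5.3.0 at a resolution of 0.8, giving 27 clusters, and clusters were named from markers. Of the cells, 530, 307 and 175 stayed unnamed. UMIs were pooled per class as CPM with exact 95% Poisson intervals, and ratios have exact conditional binomial intervals. Both cover counting error only. The floor for a count of 0 is 3 UMIs. Nuclei were clustered within each library and named from counts over the same markers, and doublets were not called among them. Peaks of the libraries were merged into 184495 regions. Total counts ranged from 201338852 to 315005811 in scATAC-seq and from 11353643 to 67543410 UMIs in scRNA-seq.

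Sums per library and side were scaled by TMM and tested with edgeR 4.0.16, and log2(TPM + 1) with limma 3.58.1 over genes with a mean of at least 1 TPM across the 4 libraries, in R 4.3.3. The library was a block in the first because both sides come from the same animals. TPM times gene length gave whole reads, within 0.05 of a read, for 97.6% to 98.3% of genes, and about 20040100 to 21493300 reads per library. Values are given for members with at least 50 CPM in a class of at least 20 cells or a mean of at least 1 TPM, and others by counts. The members, the partner lists and the tests were chosen with earlier results of these data known. The tests were checked on simulated data. Libraries of H4K20me1 and bulk ATAC-seq were not analysed here, and 1 gene is not reported here.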

Additional observations from a re-analysis of the deposited data

How the results depend on the processing

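For the vascular-like against neural UMIs, the fit with no replicate block gave 19 genes higher and 3 lower. Leaving out 1 library each gave 7 to 25 higher and 0 to 7 lower, and subtracting predicted free RNA 12 and 1. Calls over all genes were 4783 in the main fit and 3615 with no replicate block. They ran from 919 to 8321 with 1 library left out and were 1849 with predicted free RNA subtracted. For regions at gene starts, the fit with no replicate block called 32 higher and 2 lower, and leaving out 1 library 25 to 32 and 0 to 9. A window of 2 kb gave 35 and 6. In the main fit 64.2% of regions at protein-coding starts were called higher and 12.9% lower. These shares were not counted in the alternatives of this kind, so the counts are descriptions. Without TMM, an alternative chosen after seeing the data, 27 were higher and 8 lower, and the region of Col12a1 went from 0.05 to -0.64 (log2), while the RNA calls did not change. The cause of these moves was not tested. No paired analysis was possible because the culture has 1 knockdown library. There, a pseudocount of 0.1 TPM gave 7 higher and 1 lower, no filter on low values 5 and 1 (of the 9 genes called, Col18a1 alone kept its call), edgeR 11 and 1, and leaving out 1 control 7 to 9 and 0 to 1. With the groups of the titles, limma called neither the members nor any other gene. Calls over all genes also fell with no filter on low values and rose with edgeR.

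For age, requiring 10 UMIs raised the lower gene and class pairs of mural- and VSMC-like cells from 10 to 16. Over all genes the lower ones rose from 427 to 709 in mural-like and from 288 to 501 in VSMC-like cells. In the 5 neural classes a rule of 1.5-fold gave 4 higher (from 2) and 14 lower (from 7), free RNA subtraction 1 and 14, and at least 2000 UMIs per cell 1 higher. Counts over all genes moved the same way in each neural class. In AS-like cells 1.5-fold raised them from 406 to 737 higher and from 748 to 1489 lower. No direction reversed. In the vascular-like against neural UMIs, 2 further alternatives were chosen after seeing the data. Leaving out the cycling cluster (21 and 4) or adding an unnamed cluster with pericyte, VSMC and fibroblast markers (20 and 4) kept the counts within 1.5 times. Calls over all genes were 5393 and 4831. Depth limits the 24W neural cells and the P5 vascular-like cells most.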

Other observations

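Ependymal-like cells, which line the ventricles and were on neither side of the comparisons, had their own collagens. Col8a2, the partner chain of Col8a1, was at 81.3, 236 and 199 CPM in the P5, 12W and 24W libraries, and Col6a5, a collagen VI chain, at 26.9, 123 and 116 CPM. In NSC-like cells the same genes were at most at 0.77 and 0 CPM. The ependymal-like class held 295, 34 and 61 cells, so the adult levels rest on 27 and 53 UMIs of Col8a2 and on 14 and 31 UMIs of Col6a5.

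A cluster of 11, 290 and 173 cells, with Ccl19 leading, scored highest for pericyte and next for VSMC markers and stayed unnamed. It had Col3a1 at 495 and 437 CPM in the 12W and 24W libraries, where pericyte-like cells had 18.4 and 21.9 CPM. Its Col18a1 was at 93.8 and 100.3 CPM and its Col8a1 at 142 and 90.6 CPM. These values are descriptions, with no test, and these genes were chosen after their values were seen.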
